A study of Homo sapiens with 16 samples.

Results

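The proteasome genes on these arrays were the genes whose only symbol starts with PSMA, PSMB, PSMC, PSMD, PSME, PSMF or PSMG, with pseudogenes and antisense genes left out. This gave 47 genes of 18395, carried by 53 of 33297 gene-level probe sets. Of these, 45 passed the filter on low signals (mean at or above the 25th percentile), as did 13796 genes in all. PSMA8, the testis alpha subunit, and PSMB11, the thymic catalytic subunit, did not pass: PSMA8 lay between 3.34 and 3.67 and PSMB11 between 3.53 and 4.14 on the log2 scale. PSMC3IP and PSME3IP1 match by symbol but encode proteins that interact with subunits. PSMC5, PSMD7 and PSMD13 had probe sets with their symbol alone only in the exon-level summary and are described there.

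The study asked what changes when RELB, an NF-kB family member that acts in the alternative branch of that pathway, is reduced in L1236, an established Hodgkin lymphoma cell line. All cells, controls included, were infected with a retrovirus carrying a hairpin RNA against RELB. One population was left without doxycycline (labelled uninduced, 4 arrays) and the other was given doxycycline to turn the hairpin on (labelled induced, 4 arrays). Within each label, titles pair every B code (B_1, B_4) with every final digit (1, 4), here called the last number. The labels explain neither. Array values below are given in the order B_1 with 1, B_1 with 4, B_4 with 1, B_4 with 4. The labels do not name a vector without a hairpin against RELB or cells treated with doxycycline alone among these groups, and they do not say whether the 4 arrays of a label are separate cultures. If they are not, the p-values cover technical spread alone. RELB itself was 7.23, 7.38, 7.54 and 7.45 in the arrays labelled uninduced and 7.22, 7.26, 7.39 and 7.14 in those labelled induced. The groups overlapped (difference -0.15 ± 0.09 SE, limma adjusted p = 0.212; exact two-sided permutation p = 0.171), so every direction below rests on the labels.

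The proteasome degrades proteins tagged with ubiquitin. Its barrel, the 20S core, has rings of alpha and beta subunits, of which PSMB5, PSMB6 and PSMB7 carry the cutting sites, and the 19S cap recognises, unfolds and feeds substrates with a ring of ATPases. Under interferon gamma, PSMB8, PSMB9 and PSMB10 can take the places of PSMB5, PSMB6 and PSMB7 to form the immunoproteasome, and PSME1 and PSME2 form the PA28 activator, which together favour peptides suited to MHC class I.

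The promoters of the interferon-inducible members are shown because PSMB8 and PSMB9 moved against PSMB10, PSME1 and PSME2 in the arrays. Sequences are RefSeq's for GRCh38.p14, read 5′ to 3′ on the gene's strand from 150 bases before the annotated start. Capitals mark an ISRE core (GAAA, any 2 bases, GAAA, on either strand), the element bound by interferon-regulated factors, and in TAP1 also a kB consensus. TAP1, whose start lies 488 bases from that of PSMB9 and points the other way, is printed for comparison.
PSMB8 (chr6:32844042-32844197, minus strand, downstream of its 2 starts): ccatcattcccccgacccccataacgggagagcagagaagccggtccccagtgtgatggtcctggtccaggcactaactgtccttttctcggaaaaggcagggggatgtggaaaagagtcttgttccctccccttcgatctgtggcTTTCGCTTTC
PSMB9 (chr6:32854042-32854191, plus strand): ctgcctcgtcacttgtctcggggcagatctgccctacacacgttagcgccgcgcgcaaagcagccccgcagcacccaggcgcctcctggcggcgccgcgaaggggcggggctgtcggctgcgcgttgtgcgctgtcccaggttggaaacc
TAP1 (chr6:32853705-32853854, minus strand): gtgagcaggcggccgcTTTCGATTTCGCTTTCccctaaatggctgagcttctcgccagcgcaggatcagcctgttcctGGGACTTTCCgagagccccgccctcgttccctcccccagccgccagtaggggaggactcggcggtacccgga
PSMB10 (chr16:67936851-67937000, minus strand): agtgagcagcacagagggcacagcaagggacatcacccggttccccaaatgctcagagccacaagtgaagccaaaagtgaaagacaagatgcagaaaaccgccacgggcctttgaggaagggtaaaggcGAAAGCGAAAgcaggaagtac
PSME1 (chr14:24136044-24136208, plus strand): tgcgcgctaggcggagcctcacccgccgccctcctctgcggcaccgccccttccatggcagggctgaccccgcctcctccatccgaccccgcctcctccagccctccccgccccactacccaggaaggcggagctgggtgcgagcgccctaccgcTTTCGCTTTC
PSME2 (chr14:24146611-24146760, minus strand): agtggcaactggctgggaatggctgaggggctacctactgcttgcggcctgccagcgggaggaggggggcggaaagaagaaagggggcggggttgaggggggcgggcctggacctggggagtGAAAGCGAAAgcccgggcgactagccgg

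The ISRE core stood in the 300-base windows (250 before to 50 after a start) of PSMB8, PSMB10, PSME1 and PSME2, and not in that of PSMB9. Of these 4 genes, PSMB10, PSME1 and PSME2 were higher in arrays labelled induced and PSMB8 was lower. Any part of the motif in these differences was not tested. Among all 35116 promoters, 3.57% held it, and 13.7% of the 51 promoters of proteasome genes did. By gene, it stood in 7 of the 41 proteasome genes with a promoter entry and in 1195 of all 27305 genes. Of those 7, the 3 not named above were PSMA4, PSMB4 and PSMG4. It stood in 0 of 13 19S subunit genes. In the TAP1 window the pair of ISRE matches overlap each other. They span -134 to -119 from the TAP1 start. That stretch lies between the starts of TAP1 and PSMB9, but outside the window searched for PSMB9. Other motifs, searched on both strands, were the GAS core (TTCNNNGAA), in 15.7% of proteasome promoters and 7.66% of all, and the ARE core (TGACNNNGC), in 27.5% and 13.3%. The kB consensus was in 3.92% and 11.3%. A match describes the letters only. No entry was matched for PSMA7, PSMB1, PSMB6, PSMB7, PSMD4 and PSMG3.

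Differences between the labels were spread over the whole transcriptome. Of all tested genes, 55.5% passed (limma, Benjamini-Hochberg adjusted p under 0.05), 27.1% higher and 28.4% lower in arrays labelled induced. Column medians lay between 5.79 and 5.88. Over tested genes, the uninduced arrays correlated at 0.994 or more inside a B code and at 0.988 or less across codes, so those 4 arrays may hold fewer than 4 independent samples. For the induced arrays the lowest value inside a code was 0.989 and the highest across codes 0.991. T cell markers stayed under the filter (0 of 5 tested; summed signal 21.0 to 21.5 uninduced and 21.8 to 22.5 induced), and none of the 2 tested myeloid or 3 tested fibroblast markers passed the test. Of 7 Hodgkin cell markers, 2 rose and 4 fell: TNFRSF8, which encodes CD30, rose from a mean of 6.89 to 11.59, and BATF3 fell from 10.93 to 6.62. CCL17 was 6.59 and 6.56. The summed Hodgkin marker signal ranged from 59.7 to 60.5 uninduced and from 56.6 to 58.1 induced; the part of these marker differences in the proteasome results was not tested. In bulk RNA, fewer cells of a kind and less RNA per cell cannot be told apart.

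Among the 45 tested proteasome genes, 10 were higher and 20 lower in arrays labelled induced, and 15 did not pass. The share called, 30 of 45, stands beside 55.5% over all genes. The share lower, 20 of 45, stands beside 28.4%. The median difference was -0.14 against 0.02 for all tested genes, and the median absolute difference 0.44 against 0.30. Groups did not overlap for 9 higher and 18 lower genes, where 24.2% and 25.6% of all genes did so (49.8% in either direction). Only PSMB9 changed at least 2-fold, as 16.5% of all tested genes did with an adjusted p under 0.05. The values are given below by the part of the particle.

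**Figure D1:**
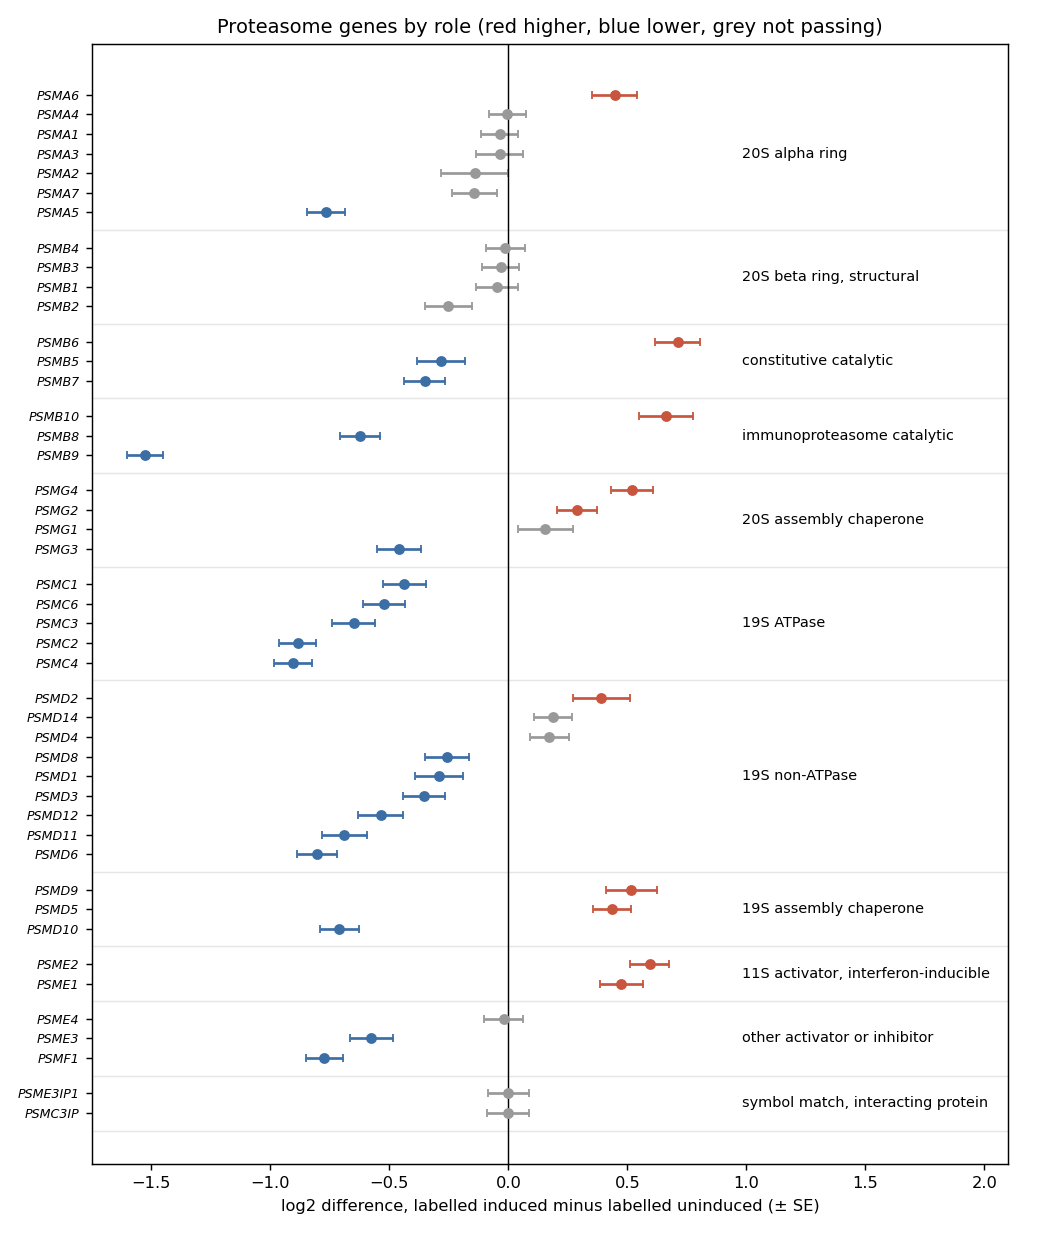
Log2 difference (labelled induced minus labelled uninduced, ± SE, 4 arrays each) of the 45 tested proteasome genes, grouped by role; red points are higher, blue lower and grey did not pass the adjusted p of 0.05. The 5 ATPases plotted lie below 0, between -0.91 and -0.44 (PSMC5, measured at exon level only, differed by 0.04 and is not drawn), while the structural beta subunits lie between -0.25 and -0.01.

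PSMB9, the inducible counterpart of PSMB6, showed the largest change of all proteasome genes. Its log2 signals were 11.41, 11.36, 11.52 and 11.37 in arrays labelled uninduced and 9.90, 9.78, 9.96 and 9.91 in those labelled induced. Each array of the first group lay above each of the second. The difference was -1.53 ± 0.08 (SE; 95% interval -1.70 to -1.36), a 2.88-fold lower signal (limma adjusted p = 3.38e-08). Leaving out any 1 array kept this call.

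PSMB8, which replaces PSMB5, was also lower, by less. It read 10.34, 10.42, 10.77 and 10.61 against 9.90, 9.72, 10.02 and 10.00, with no overlap. The difference was -0.62 ± 0.08 (adjusted p = 8.23e-05). PSMB8 and PSMB9 each had 3 gene-level probe sets with identical values in every array, and each gene was counted once.

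PSMB10, which replaces PSMB7, moved the other way. Its values were 7.29, 7.49, 7.67 and 7.74 in arrays labelled uninduced and 8.09, 8.48, 8.12 and 8.15 in those labelled induced. The groups did not overlap, and the difference was 0.66 ± 0.11 (adjusted p = 0.000479). The inducible catalytic subunits therefore did not move as 1 group.

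The constitutive catalytic subunits were split in the same manner. PSMB6, the caspase-like subunit, rose from 9.83, 9.85, 9.92 and 10.00 to 10.70, 10.38, 10.84 and 10.53, the largest rise of the proteasome genes (0.71 ± 0.09, adjusted p = 7.29e-05). PSMB7, the trypsin-like subunit, fell from 11.01, 11.05, 11.33 and 11.21 to 10.88, 10.68, 10.90 and 10.74 (-0.35 ± 0.09, adjusted p = 0.00513). Neither gene's groups overlapped. PSMB5, the chymotrypsin-like subunit and the target of bortezomib, was 8.61, 8.80, 8.94 and 8.79 against 8.62, 8.22, 8.65 and 8.52. Its groups overlapped, and its fall of 0.28 on the log2 scale (SE 0.10, adjusted p = 0.033) lost the call when any of 6 arrays was left out (uninduced 2, 3 or 4, induced 2, 3 or 4; adjusted p 0.0641 to 0.133).

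**Figure D2:**
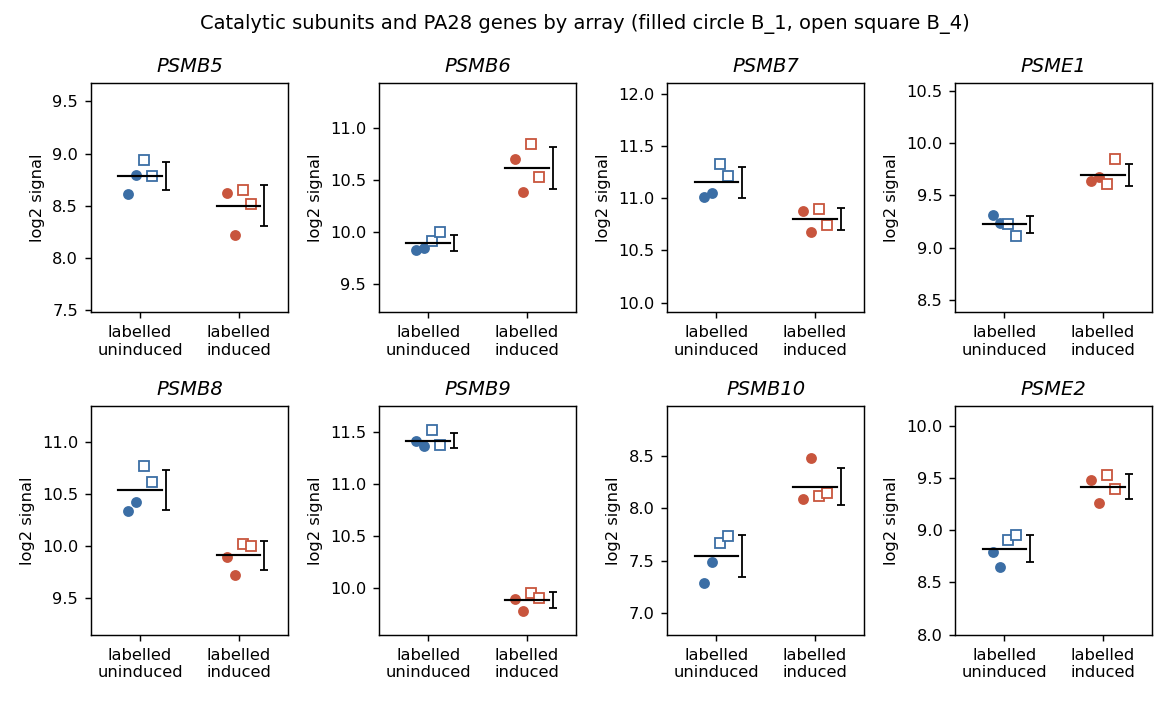
Log2 signal in each array for the constitutive catalytic genes, their inducible counterparts and PSME1 and PSME2; filled circles are B_1, open squares B_4, the long line is the mean and the bar the SD (n = 4 per label). All panels span the same range; PSMB9 and PSMB8 sit lower and PSMB6, PSMB10, PSME1 and PSME2 higher in arrays labelled induced, with no overlap, while PSMB5 overlaps.

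The within-array log2 difference between an inducible subunit and the one it replaces shows how unequally a pair moved, since probe levels of different genes are not comparable. PSMB9 minus PSMB6 went from 1.58, 1.51, 1.60 and 1.38 to -0.80, -0.60, -0.88 and -0.62, a change of -2.24. PSMB8 minus PSMB5 went from 1.73, 1.62, 1.82 and 1.82 to 1.28, 1.51, 1.37 and 1.48, a change of -0.34. PSMB10 minus PSMB7 went from -3.72, -3.56, -3.66 and -3.48 to -2.79, -2.21, -2.79 and -2.59, a change of 1.01. No pair overlapped between labels. The exact two-sided permutation p was 0.0286 for each of the 3 pairs, the smallest that 4 against 4 arrays allow, and 0.0286 after adjustment over the 3. Any comparison without overlap gives this p, and 49.8% of all tested genes, taken singly, did not overlap. Other gene pairs were not examined. With the mean of exon-level probe sets, PSMB8 minus PSMB5 changed by -0.29 and missed the threshold (adjusted p = 0.0571).

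Both genes of the interferon-inducible PA28 activator were higher in arrays labelled induced. PSME1 rose from 9.31, 9.24, 9.23 and 9.11 to 9.64, 9.68, 9.61 and 9.85 (0.47 ± 0.09, adjusted p = 0.00109). PSME2 rose from 8.79, 8.65, 8.90 and 8.95 to 9.48, 9.26, 9.53 and 9.39 (0.59 ± 0.08, adjusted p = 0.000111). Neither gene's groups overlapped. Of the 5 interferon-inducible genes, 3 thus rose and 2 fell.

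The other activators and the inhibitor gave lower or like values. PSME3, which forms the nuclear PA28 gamma ring, fell by 0.58 on the log2 scale (SE 0.09). PSMF1, the inhibitor PI31, went from 10.05, 9.93, 9.98 and 9.92 to 9.18, 9.12, 9.26 and 9.23, a difference of -0.77 ± 0.08 (adjusted p = 1.03e-05) with no overlap. PSME4, the PA200 activator, did not pass (-0.02 ± 0.08).

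Of 14 tested constitutive alpha and beta genes, 2 were higher (PSMA6, PSMB6), 3 lower (PSMA5, PSMB5, PSMB7) and 9 did not pass, where 27.1% of all tested genes were higher and 28.4% lower. The median difference of these 20S genes was -0.04. The alpha ring forms the gate of the barrel. In it, PSMA5 stood at 10.17, 10.09, 10.47 and 10.24 against 9.50, 9.34, 9.58 and 9.47, a fall of 0.77 on the log2 scale (SE 0.08, adjusted p = 1.17e-05). PSMA6, another alpha subunit, rose by 0.45 (SE 0.09, adjusted p = 0.00214), and groups of neither gene overlapped. None of the 4 structural beta genes passed: PSMB2 came closest (-0.25, 95% interval -0.47 to -0.03, adjusted p = 0.0537), and PSMB4 was nearest to 0 (-0.01). PSMB2 did pass under 4 other settings and without either of 2 arrays, with adjusted p between 0.0111 and 0.042.

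The 19S cap held most of the lower genes. Of 14 tested subunit genes, 11 were lower, 1 was higher and 2 did not pass, with a median of -0.48, where 28.4% of all tested genes were lower. No test of that contrast was made, since the genes were chosen as a group with results known. The 5 ATPase genes with a gene-level value were lower without overlap, while PSMC5, the remaining ATPase of the ring, differed by 0.04 in its exon-level mean. PSMC4 went from 9.87, 9.87, 9.87 and 9.74 to 8.89, 8.94, 8.94 and 8.96 (-0.91 ± 0.08, adjusted p = 3.05e-06). PSMC2 went from 11.30, 11.21, 11.28 and 11.10 to 10.44, 10.31, 10.35 and 10.24 (-0.89 ± 0.08, adjusted p = 2.49e-06). After PSMB9 these are the largest falls among the proteasome genes. PSMC3 differed by -0.65, PSMC6 by -0.52 and PSMC1 by -0.44. PSMC1 and PSMC6 each had 2 probe sets, and the values above are those of the set with the higher mean. The other set gave a like fall (-0.43 and -0.47). Near-identical copies elsewhere in the genome leave the assignment of their signal uncertain, also for the probe sets used here.

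Among non-ATPase subunits, the lid gene PSMD6 fell most, from 10.31, 10.40, 10.49 and 10.40 to 9.61, 9.49, 9.76 and 9.53 (-0.80 ± 0.08, adjusted p = 1.16e-05). Other lid genes fell as well: PSMD11 by 0.69, PSMD12 by 0.54, PSMD3 by 0.35 and PSMD8 by 0.26 on the log2 scale. The base scaffold gene PSMD1 fell by 0.29, whereas the other base scaffold, PSMD2, was higher, with 8.80, 8.79, 9.40 and 9.35 against 9.50, 9.44, 9.61 and 9.34 (0.39 ± 0.12, adjusted p = 0.0181). In PSMD2 the groups overlapped, and the B_1 arrays carried most of the difference. Each of these smaller calls depended on single arrays: PSMD1 lost its call without any of 6 arrays (adjusted p 0.0534 to 0.116), PSMD8 without any of 6 (0.053 to 0.142) and PSMD2 without any of 4 (0.0694 to 0.0794). PSMD4, a ubiquitin receptor, and PSMD14, the deubiquitinase of the lid, did not pass (0.17 and 0.19).

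Assembly chaperones moved in both directions. For the 19S base, PSMD5 rose by 0.44 and PSMD9 by 0.52, while PSMD10, known as gankyrin, fell by 0.71 on the log2 scale (SE 0.08). PSMD9 was 7.45, 7.34, 7.24 and 7.28 against 7.98, 7.93, 8.02 and 7.44, so that the last induced array lay among the uninduced values. For the 20S core, PSMG4 rose from 7.06, 7.0, 6.89 and 7.05 to 7.62, 7.39, 7.60 and 7.47 (0.52 ± 0.09, adjusted p = 0.000495). Its heterodimer partner PSMG3 fell by 0.46. PSMG2 rose by 0.29, a call lost without uninduced array 1 or 2 (adjusted p = 0.0503 and 0.0577), and PSMG1 did not pass. PSMC3IP and PSME3IP1 each differed by under 0.01.

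The exon-level summary of the same arrays gave a second reading of each gene and the only one for 3 subunits. PSMD7, the lid partner of PSMD14, averaged 10.61, 10.64, 10.87 and 10.72 over its probe sets in arrays labelled uninduced and 9.86, 9.54, 10.19 and 10.01 in those labelled induced. Its groups did not overlap, the mean difference was -0.81, and 7 of its 8 probe sets were lower. The ATPase PSMC5 differed by 0.04 and the lid gene PSMD13 by -0.04 on the same scale. Counting identical probe sets once, 133 of 521 tested probe sets of proteasome genes were lower and 39 higher. Of all 168240 exon-level probe sets tested, 35.4% passed, 17.5% lower and 17.9% higher.

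Probe sets within PSMB9 and within PSMB6 moved in 1 direction each, those of PSMB9 by unequal amounts. In PSMB9, 7 of 8 distinct probe sets were lower, by -2.43 to -1.35, and the remaining one differed by -0.13. In PSMB6 all 7 were higher, by 0.58 to 0.92. PSMB10 had 3 of 4 higher, PSME1 8 of 13, PSME2 5 of 7, PSMB8 7 of 10 lower, PSMB7 2 of 9 and PSMB5 1 of 8.

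In a few genes 1 probe set stood apart. PSMG1 had 9 tested probe sets, of which 1 was lower by a wide margin (10.47 to 7.78, difference -2.68 ± 0.16, adjusted p = 2.55e-05) while the others lay between -0.29 and 0.58. PSME3IP1 had 1 of 8 lower (8.40 to 5.44, -2.96 ± 0.34, adjusted p = 0.000577), with the rest between -0.56 and 0.36. In PSMB3, 1 of 7 was higher (0.71). PSMF1 had 11 of 14 lower, and its differences ran from -1.60 to 0.47. Unequal change within a gene (limma diffSplice F test) was called in 12 of 48 proteasome genes, where 40.6% of all tested genes were called. PSMB9 was among the 12 (adjusted p = 1.55e-08 with identical probe sets counted once), and PSMB6 was not (adjusted p = 0.684). By the Simes test unequal change was called in 15 (42.4% of all). By the F test without uninduced array 3 it was called in 6, without uninduced array 4 in 7 and without induced array 4 in 6. The share of all genes called in those reduced fits was not taken, so these counts have no background beside them.

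**Figure D3:**
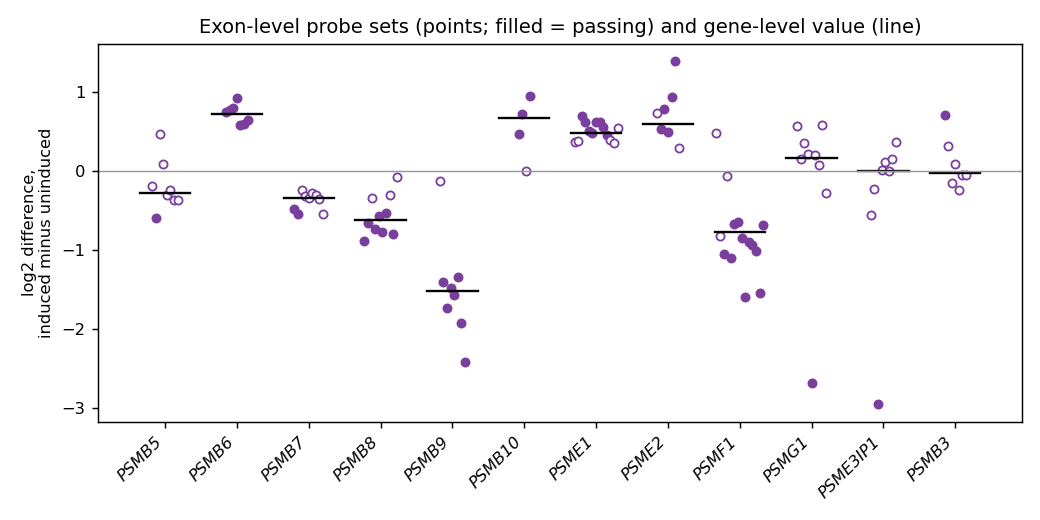
Log2 difference (labelled induced minus labelled uninduced) of each distinct tested exon-level probe set in 12 proteasome genes; filled points have an adjusted p under 0.05 and black lines are the gene-level differences. The points of PSMB6 all lie above 0, and single points of PSMG1 (-2.68) and PSME3IP1 (-2.96) lie far below the others of their gene.

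The B codes differed in proteasome genes mainly among arrays labelled uninduced. There, both B_4 arrays lay above both B_1 arrays in 25 of 45 proteasome genes (55.6%), against 27.5% of all tested genes, with a median difference of 0.13. They lay below in 5 (11.1%, all genes 28.6%). Among arrays labelled induced this held for 6 of 45 (13.3%, all genes 14.2%), with a median of 0.04. In constitutive 20S genes the counts were 12 of 14 uninduced and 0 of 14 induced, and in 19S genes 7 of 14 and 2 of 14. With only 2 arrays on each side, these counts are a description.

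No proteasome gene passed for the B code or the last number, as no gene of all tested did (0%). At an unadjusted p under 0.05, the B code had 4 proteasome genes (13.9% of all genes) and the last number 3 (7.04%). Arrays with last number 4 lay below those with 1 on average in 40 of 45 proteasome genes and in 7391 of all 13796 tested genes. The test of whether the induction difference itself differed between B codes called 0 proteasome genes and 0.297% of all. Its unadjusted p was under 0.05 in 5 of them (11.9% of all): PSMD2, PSMA2, PSMB2, PSMA3 and PSMB10. PSMD2 rose by 0.68 within B_1 and 0.10 within B_4 (difference -0.57 ± 0.16, limma adjusted p = 0.199). PSMA2 differed by 0.17 within B_1 and -0.45 within B_4 (adjusted p = 0.261). PSMB10 differed by 0.89 and 0.43 (adjusted p = 0.33). PSMB9 moved alike in both, with an interaction of 0.03 ± 0.15.

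**Figure D4:**
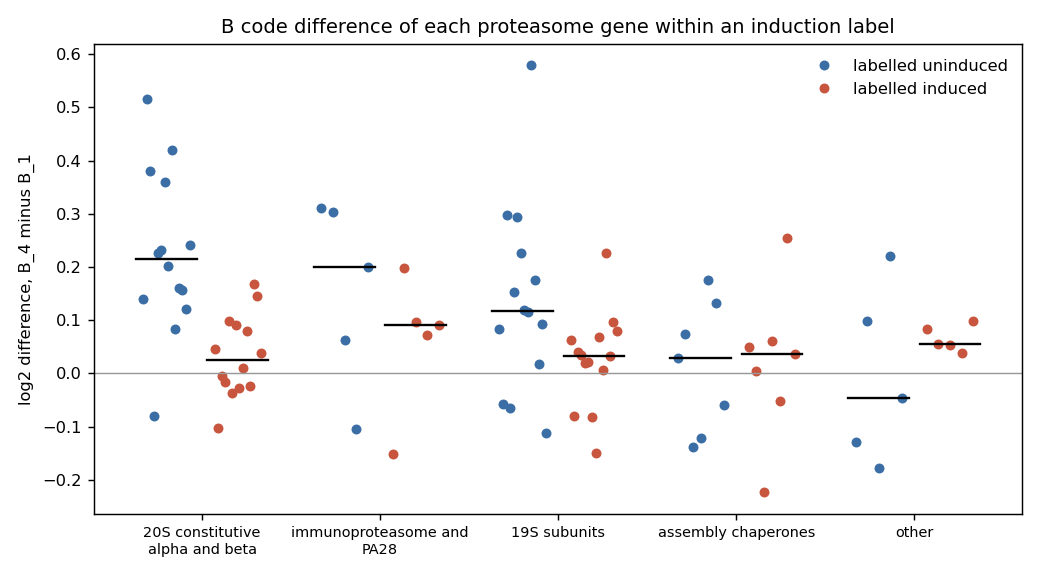
Log2 difference between B_4 and B_1 arrays (mean of 2 minus mean of 2) of each tested proteasome gene within arrays labelled uninduced (blue) or induced (red), by role; lines are medians. The constitutive 20S genes labelled uninduced reach 0.52 and all but 1 lie above 0, while those labelled induced lie between -0.10 and 0.17.

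The genes around PSMB8 and PSMB9 in the MHC class II region moved in both directions. In RefSeq order, the tested genes run HLA-DRB5, HLA-DQA1, HLA-DQB1, HLA-DOB, TAP2, PSMB8, TAP1, PSMB9, HLA-DMB, HLA-DMA, BRD2, HLA-DOA and HLA-DPA1. TAP1, a peptide transporter gene that shares its upstream region with PSMB9, went from 11.61, 11.79, 11.66 and 11.59 to 9.67, 9.60, 9.32 and 9.62 (-2.11 ± 0.09, limma adjusted p = 1.05e-08). TAP2, its partner, differed by -0.61, HLA-DOB by -2.66 and BRD2 by -0.50. The run from HLA-DOB to PSMB9 was thus lower throughout. On either side the class II genes were higher: HLA-DQB1 by 4.11, HLA-DQA1 by 3.71, HLA-DMB by 1.53, HLA-DMA by 1.86 and HLA-DOA by 1.73. HLA-DRB5, of a family of near-identical genes whose signal may be shared, differed by 5.71. HLA-DPA1 was higher by 0.54 at gene level and by 0.09 with exon-level means, where it did not pass (adjusted p = 0.524).

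**Figure D5:**
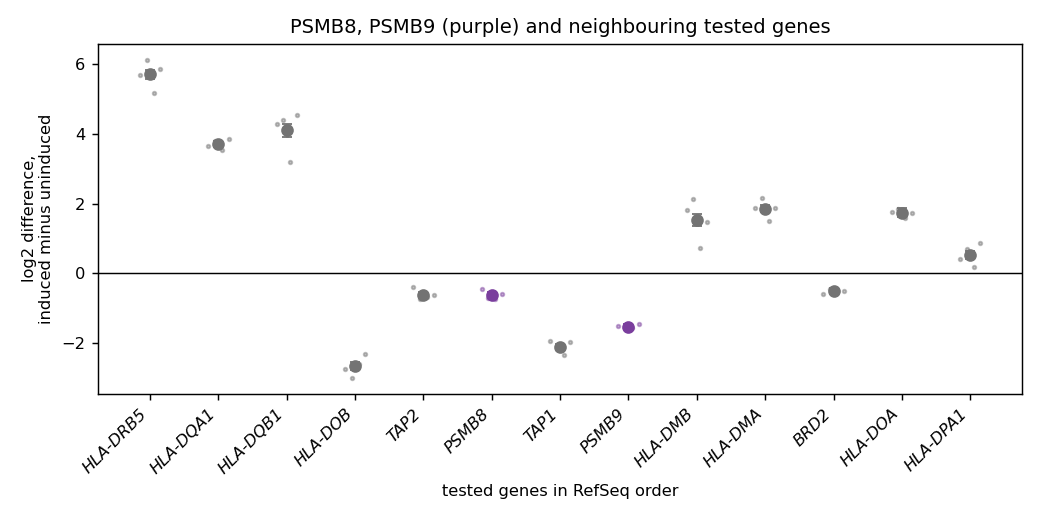
Log2 difference (labelled induced minus labelled uninduced, ± SE) of PSMB8 and PSMB9 (purple) and of tested neighbours in RefSeq order; small dots are the differences between arrays of the same B code and last number. Genes from HLA-DOB to PSMB9 lie below 0, between -2.66 and -0.61, and most class II genes on either side lie above.

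The genes whose pattern over the 8 arrays was most like that of PSMB9 were CACNA1D (Pearson's r = 0.9987), ALOX15 (0.9987) and TPGS2 (0.9985). As the arrays fall into separate groups by label, these values mostly describe that separation. CACNA1D fell from a mean of 8.17 to 5.92, ALOX15 from 11.45 to 4.88 and TPGS2 from 9.82 to 8.41.

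Around the particle, lists of partner genes are read against all tested genes, of which 27.1% were higher and 28.4% lower, with a median of 0.02. Of 24 tested proteasome cofactors, 9 were higher and 8 lower (median difference 0.13). VCP, the unfoldase that hands substrates to the proteasome, differed by -1.07, AKIRIN1 by -1.09 and BAG6, a chaperone of misfolded proteins, by -0.92. UCHL5, a deubiquitinase that docks on the cap, was higher by 1.07. AKIRIN2 and IPO9, also among these cofactors, were higher by 0.46 and 0.66. Of 12 genes of the NFE2L1 pathway, through which cells raise proteasome transcription, 2 were higher and 2 lower (median -0.11). NFE2L1 itself went from 10.22, 10.28, 9.75 and 9.70 to 8.83, 8.57, 9.05 and 9.20 (-1.07 ± 0.17, limma adjusted p = 0.000305). Within B_1 it differed by -1.55 and within B_4 by -0.60 (interaction 0.95 ± 0.18, limma adjusted p = 0.0688). The groups of NFE2L1 did not overlap, and neither did those of its relative NFE2L3 (-1.25). SYVN1, a ubiquitin ligase of the endoplasmic reticulum, was higher by 0.85 and TXNRD1 by 0.79.

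Of 15 tested genes of ubiquitin and its conjugation, 2 were higher and 8 lower (median -0.26), beside the same 27.1% and 28.4% of all genes. UBE2S differed by -1.19, UBE2L6 by -0.93 and SKP1, an adaptor of cullin ligases, by -0.75, while UBE2K was higher by 0.85. Of 13 class I presentation genes, 4 were higher and 7 lower (median -0.34), led by TAP1, THOP1 (-0.98), TAPBP (-0.81) and TAP2. Of 13 regulators and readouts of interferon gamma signalling, 6 were higher and 5 lower (median -0.11). No test of these lists against other genes was made. The kinase gene JAK2 went from 9.61, 9.45, 9.29 and 9.29 to 6.30, 6.21, 6.06 and 6.0 (-3.27 ± 0.08). JAK1, its partner at the receptor, was higher by 2.04, SOCS1, an inhibitor of both, differed by -2.57, and IFI30 by -1.62.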

How the data were processed

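The authors deposited log2 signals made with RMA and Partek, per the submitters' processing notes, which give no version. Base 2 is inferred from the range of values (2.07 to 14.14), as no label states it. RMA equalises the arrays, which would remove a shift common to all genes. The sources used here name no genome build for these values. The 16 samples are 8 arrays summarised at gene and exon level: all 4428 shared features had identical values, so exon-level samples were never counted as further replicates. Genes were named through the platform table, with symbols updated by gene identifier; 19460 probe sets had 1 symbol, and 1754 with several were not named. The probe set with the highest mean stood for a gene. Limma 3.58.1 in R 4.3.3 fitted induction label, B code and last number to 8 arrays (4 residual degrees of freedom, prior 6.27), adjusted over all 13796 tested genes; exon-level fits were alike. The members and lists were chosen with earlier results of these data known. By rule, the text names the catalytic and PA28 genes, the 6 largest rises and falls, the extremes of role groups, 4 genes with the lowest p per list, 5 tested neighbours on each side, 3 genes most like PSMB9, and RELB; others were named after their values were seen. Scripts were tested on simulated data, where the exon usage test also called some genes left unchanged. The number of arrays limits the precision. Figures used matplotlib 3.10.9 in Python 3.11.15.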

Additional observations from a re-analysis of the deposited data

Results flagged for a closer look

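In 6 of 162 groups of 4 arrays, 1 array lay far from the other 3 (the gap to its nearest neighbour was above Dixon's 95% critical value); chance flags about 1 in 20 such groups, or 8.1 here. PSMB10 in induced array 2 was 8.48, with the others between 8.09 and 8.15. PSMC4 in uninduced array 4 was 9.74, with the others at 9.87. PSMD12 in uninduced array 3 was 9.70, with the others between 9.46 and 9.48. PSMD9 in induced array 4 was 7.44, with the others between 7.93 and 8.02. TAPBP in induced array 3 was 10.93, with the others between 11.22 and 11.24. TAP2 in induced array 2 was 8.56, with the others between 8.80 and 8.83.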

How the results depend on the processing

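Over the alternatives run (filters, quantile normalisation, median centring, probe set and exon-level means, a variance trend, no covariates, the block fits and each array left out), 8 to 11 proteasome genes were higher, 17 to 21 lower and 9 to 11 of the 19S genes lower. Same-numbered arrays did not deviate together throughout (correlations 0.158, -0.0206, 0.114 and 0.0218), so the numbers were not taken as pairs; with the replicate block, 10 were higher, 19 lower and 10 of the 19S genes lower, the lost call being PSMD8 (limma adjusted p = 0.0523). PSMB8 minus PSMB5 changed by -0.286 with exon-level means. The exon usage count ran from 6 to 14 with 1 array left out. The count of exon-level probe sets called was 200 when identical sets of PSMB8 and PSMB9 are each counted. With 1 array left out that count ran from 134 to 160. Shares over all genes or all probe sets in those reduced fits were not taken. Counting identical probe sets once, chosen after seeing the data, left 12 genes. Directions turned only in genes that did not pass. With 1 array left out, PSMA3 ran from -0.0979 to 0.0416, PSMA4 from -0.0293 to 0.0102, PSMB1 from -0.113 to 0.0092, PSMB4 from -0.0539 to 0.0199, PSME4 from -0.0618 to 0.0174, PSMC3IP from -0.0614 to 0.0577 and PSME3IP1 from -0.049 to 0.0565. Median centring gave PSMC3IP 0.0003 and PSME3IP1 0.0004, and exon-level means gave PSMB3 0.0842 and PSMG1 -0.0827. The cause was not tested. These exon-level means take in the probe set that stood apart in each gene (0.71 in PSMB3 and -2.68 in PSMG1). PSME3IP1 passed with exon-level means (-0.354, limma adjusted p = 0.00527). That mean takes in its probe set at -2.96, while its other tested probe sets lay between -0.56 and 0.36 and did not pass.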
